A study of Mus musculus with 6 samples.

Results

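A set of 10 transcription factor genes that pattern the tail end of the embryo and its segmenting mesoderm were followed on 6 Affymetrix arrays: the caudal homeobox genes Cdx1, Cdx2, Cdx4 and Evx1, the presomitic factors Msgn1, Tbx6 and Mesp2, and the somite factors Meox1, Meox2 and Tcf15. They were taken as every probe set whose platform annotation names only that gene, which gave 12 probe sets of 45101 for all 10 genes (Cdx2 and Meox2 have 2 each), of 18193 genes measured. The mutant group held 3 samples of YFP+ cells sorted from mouse embryos at embryonic day 9.0 that carried Isl1-cre, Rosa-YFP and a Beta-catenin allele with loxP sites around exon 3, from which Cre yields a stabilised β-catenin. The wild-type group held 3 samples of YFP+ cells of the Isl1-cre domain at the same stage without the stabilised protein, and the labels spell out no further alleles for it. Cre under Isl1 marks a lineage and not a present cell type, the reporter stays on in all descendants, and how many embryos entered a sample is not given, so p-values cover only the spread among these samples, which may be technical in part. The series asks how Notch1, β-catenin and Isl1 act together in the fate of cardiac progenitors.

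In the tail bud, Wnt, FGF and Cdx factors keep a pool of progenitors growing. Cells that leave it enter the presomitic mesoderm, where Tbx6 and Msgn1 set the paraxial fate and Mesp2 marks the next segment border, and then form somites, where Meox1, Meox2 and Tcf15 (paraxis) act. Cdx1, Cdx4, Evx1, Msgn1 and Tbx6 are known in the mouse as genes that depend on Wnt signalling in the primitive streak or tail bud, and the heart-forming mesoderm labelled by Isl1 lies outside this region. Isl1 is also known in hindlimb mesoderm, gut endoderm and motor neurons. In bulk samples such as these, fewer cells of a type and less RNA per cell cannot be told apart.

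Values are log2 expression, 1 unit being a doubling. The array medians lay between 6.47 and 6.50, and a rough background level of 4.85 was taken from 27 bacterial control probe sets that match no mouse gene. Of 12 cardiac progenitor genes, 11 lay above that level on all 6 arrays. The exception was Nkx2-5, an early cardiac homeobox factor, at 4.36 ± 0.20 in mutant and 4.82 ± 0.17 in wild-type cells (mean ± SD, n = 3 each). Isl1 itself read 8.27 ± 0.68 in mutant and 9.46 ± 0.28 in wild-type cells. Across all genes limma called 12 higher and 0 lower in mutant cells at an adjusted p of 0.05, which makes 0.066% of all genes higher and 0% lower; leaving out an array gave between 0 and 81 higher calls. None of the 10 mesoderm factors was among these calls, and none of their 12 probe sets among the 8 calls made when every single-gene probe set was tested (0.0229%). An unadjusted p under 0.05 was met upward by 6.76% of all genes (1230) and by 2 members, Evx1 and Cdx1, and downward by 4.84% (880) and by no member.

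The promoters of Evx1 and Msgn1 are shown because Evx1 had the largest difference of the 10 genes, and Msgn1, a Wnt-dependent gene in the mouse tail bud, was the only one of those searched whose promoter held letters bound by the TCF/LEF partners of β-catenin. The sequences run 5′ to 3′ over 300 bases, 250 before and 50 after the gene's start, from RefSeq on build GRCm38.p6. Capitals mark matches to CTTTGAA or CTTTGAT on either strand.
Evx1, chr6:52313248-52313547, + strand: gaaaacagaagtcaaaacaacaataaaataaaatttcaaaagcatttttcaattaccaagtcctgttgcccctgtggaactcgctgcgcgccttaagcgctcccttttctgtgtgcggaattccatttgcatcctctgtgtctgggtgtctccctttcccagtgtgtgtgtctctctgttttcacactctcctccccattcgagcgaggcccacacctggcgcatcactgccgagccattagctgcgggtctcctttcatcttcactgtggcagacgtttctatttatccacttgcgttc
Msgn1, chr12:11208899-11209198, − strand: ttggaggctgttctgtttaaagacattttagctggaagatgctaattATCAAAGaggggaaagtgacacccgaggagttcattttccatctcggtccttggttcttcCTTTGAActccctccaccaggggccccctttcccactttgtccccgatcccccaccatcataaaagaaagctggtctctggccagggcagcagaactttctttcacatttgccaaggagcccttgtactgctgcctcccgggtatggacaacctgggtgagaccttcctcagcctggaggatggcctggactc
The Msgn1 window held a match to CTTTGAT on the opposite strand, starting at base 48, and a match to CTTTGAA on the printed strand, starting at base 108. Promoters of 7 of the 10 members were searched (Cdx1, Meox1 and Tcf15 were not), and 1 held a match, as did 8.65% of all 32851 mouse promoters of this length. The motifs do not overlap each other, and the match is a description of these letters only.

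Among the caudal factors, Evx1 stood higher in mutant cells with no overlap between the groups, Cdx1 stood higher with overlap, Cdx2 was high on a single mutant array, and Cdx4 stayed below the background level. Evx1, an even-skipped homeobox factor of the primitive streak and tail bud, read 6.76, 7.50 and 6.01 on mutant arrays 1, 2 and 3, against 4.93, 5.48 and 5.53 on the wild-type arrays. Every mutant array lay above every wild-type array, a pattern met in the upward direction by 8.64% of all genes and by 1 of the 10 members, and in the downward direction by 9.18% of all genes and by no member. The difference was 1.45 (SE 0.36, 95% interval 0.60 to 2.29 before any adjustment), or 2.72-fold, and did not pass (limma adjusted p = 0.237). Permuting the 6 arrays exactly gave p = 0.1 (two-sided), the smallest value that 3 against 3 arrays allow. It ran from 1.07 without mutant replicate 2 to 1.82 without mutant replicate 3, with adjusted p from 0.225 to 0.463 over the 6 settings that leave out an array.

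Cdx1, the caudal homeobox gene known as a direct Wnt target in the mouse, read 5.35, 6.42 and 6.63 on mutant arrays 1, 2 and 3, against 4.68, 5.62 and 4.92 on the wild-type arrays. Mutant arrays 2 and 3 were above all wild-type arrays, while mutant array 1 lay below wild-type array 2. Wild-type array 1 was below the background level of 4.85 and wild-type array 3 just above it, so the wild-type mean lies near that level. The difference of 1.06 (SE 0.37, 95% interval 0.19 to 1.93) did not pass (limma adjusted p = 0.363). It was 1.45 without mutant replicate 1, with the lowest adjusted p of any member in the leave-one-out settings, 0.117, and 0.81 without mutant replicate 3. Evx1 and Cdx1 were the members with a log2 difference of at least 1, 2 of 10, beside 1.08% of all genes upward; downward it was no member and 0.363% of all genes.

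Cdx2, a caudal factor that is also a master gene of hindgut endoderm and trophoblast, gave discordant probe sets. The brighter one read 5.43, 7.32 and 5.34 on mutant arrays 1, 2 and 3, against 5.14, 5.38 and 5.24 on the wild-type arrays. Mutant array 2 stood alone and the other 5 arrays lay within the narrow band of 5.14 to 5.43. The mean difference of 0.78 (SE 0.49, limma adjusted p = 0.566) became 0.13 without mutant replicate 2. The dimmer Cdx2 probe set read 5.12, 5.22 and 5.24 on the mutant arrays, against 5.18, 5.52 and 5.20 on the wild-type arrays. It showed no high value on mutant array 2, and its difference was −0.11 (SE 0.14, adjusted p = 0.797 in the fit over every probe set). Cdx4, the X-linked caudal gene that acts with Cdx1 and Cdx2 in axial elongation, read 2.64, 2.84 and 2.68 on the mutant arrays, against 2.56, 2.49 and 2.69 on the wild-type arrays. All 6 Cdx4 values were below the background level, so that its difference of 0.14 (adjusted p = 0.682) is not a measured change.

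**Figure D1:**
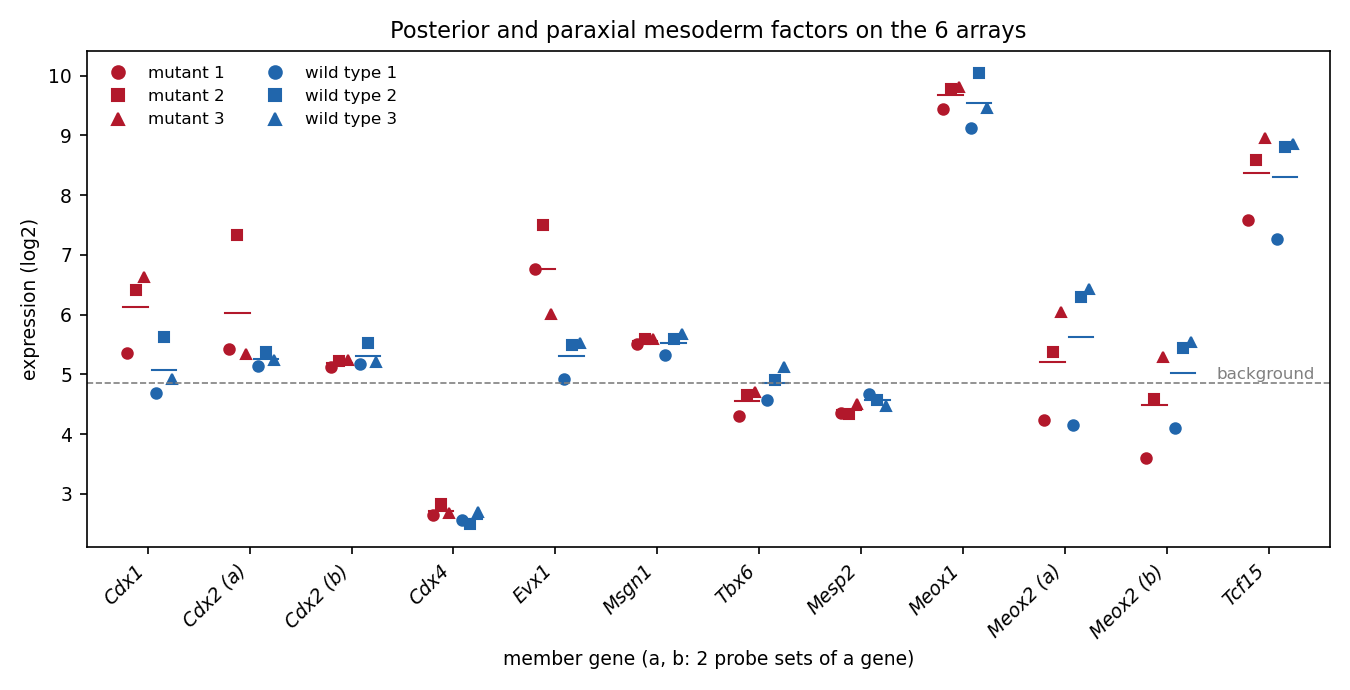
Log2 expression (y axis) of the 12 probe sets of the 10 member genes (x axis) on 3 mutant (red, left of each pair) and 3 wild-type arrays (blue, right), with symbols for the replicate number, short lines for group means and a dashed line at the background level of 4.85. Evx1 is the one gene whose mutant points all lie above its wild-type points, the high Cdx2 point is mutant array 2 on one of its probe sets, and the circles of Meox2 and Tcf15 (replicate 1) are low in both groups.

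The presomitic factors were near the background level and showed no difference beyond the spread of the arrays. Msgn1 (mesogenin), the basic helix-loop-helix factor that drives presomitic differentiation, read 5.51, 5.58 and 5.58 on mutant arrays 1, 2 and 3, against 5.32, 5.58 and 5.67 on the wild-type arrays. The mutant values lay inside the wild-type range, and the difference of 0.03 had a 95% interval from −0.28 to 0.35 (limma adjusted p = 0.937). Tbx6, the T-box factor that separates paraxial mesoderm from a neural fate, read 4.30, 4.65 and 4.70 on the mutant arrays, against 4.57, 4.90 and 5.11 on the wild-type arrays. The groups overlapped, 2 of its 6 values were above the background level, both in wild type, and the difference was −0.31 (95% interval −0.74 to 0.12, adjusted p = 0.546). Mesp2, which sets segment borders and lies next to its relative Mesp1 in the mouse assembly GRCm38.p6, read 4.36, 4.33 and 4.51 on the mutant arrays, against 4.67, 4.57 and 4.46 on the wild-type arrays. All Mesp2 values were below the background level, and the difference was −0.17 (95% interval −0.46 to 0.12, adjusted p = 0.614). Mesp1, which marks the earliest cardiac mesoderm, read 6.54 ± 0.09 in mutant and 6.55 ± 0.07 in wild-type cells (SD, n = 3 each), a difference of −0.02 (adjusted p = 0.966).

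The somite factors were not called in either direction. Meox1, a homeobox factor of the early somite, read 9.43, 9.78 and 9.80 on mutant arrays 1, 2 and 3, against 9.12, 10.04 and 9.46 on the wild-type arrays. The mutant values fell inside the wild-type range, with a difference of 0.13 (95% interval −0.43 to 0.70, limma adjusted p = 0.853). Tcf15, the basic helix-loop-helix factor needed for somites to become epithelial, read 7.59, 8.58 and 8.96 on the mutant arrays, against 7.26, 8.81 and 8.85 on the wild-type arrays. Array 1 was the low one of each group, and the mean difference of 0.07 had a 95% interval from −1.09 to 1.23 (adjusted p = 0.967). Meox2, a homeobox factor of somites and limb muscle precursors, behaved likewise on its brighter probe set, with 4.23, 5.37 and 6.04 on the mutant arrays, against 4.15, 6.29 and 6.42 on the wild-type arrays. Its other probe set read 3.60, 4.59 and 5.28 in mutant cells, against 4.10, 5.43 and 5.53 in wild-type cells. Both Meox2 probe sets were below the background level on array 1 of each group, and their differences were −0.41 (95% interval −1.98 to 1.16, adjusted p = 0.834) and −0.53 (adjusted p = 0.703 in the fit over every probe set; −0.0860 without mutant replicate 1 and −0.99 without wild-type replicate 1). The intervals of Tcf15 and of the brighter Meox2 probe set extend beyond 1 in both directions.

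**Figure D2:**
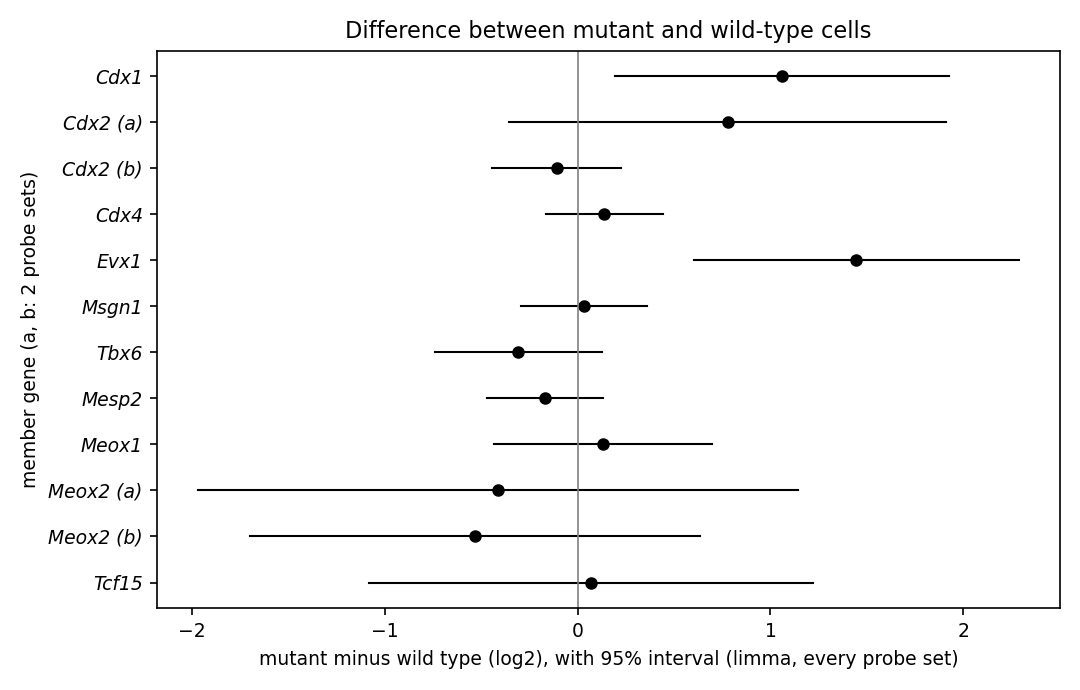
Mutant minus wild-type difference (x axis, log2) of each of the 12 member probe sets (y axis), as points with 95% intervals from the limma fit over every probe set, before adjustment. Intervals of Evx1 and Cdx1 lie above 0 and those of the other 10 probe sets include 0; Tcf15 and both probe sets of Meox2 have wide intervals, Msgn1 and Cdx4 narrow ones.

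The members shared part of their spread across arrays. For 6 of the 10 genes (Cdx1, Msgn1, Tbx6, Meox1, Meox2 and Tcf15) replicate 1 was the lowest array in mutant and in wild-type cells alike, as it was for 13.5% of all genes. Replicates 2 and 3 were the lowest in both groups for none of the 10, and for 8.99% and 8.98% of all genes. Replicate 3 was the highest in both groups for Msgn1, Tbx6, Meox2 and Tcf15, as for 9.93% of all genes. Some of these ranks rest on little: Msgn1 read 5.583 and 5.584 on mutant arrays 2 and 3, and Tbx6 exceeded the background level on 2 of 6 arrays. This count was made after the low values had been seen. The genes nearest to Meox2, by the root mean square difference of values centred on each gene's mean over the 6 arrays, were Hoxb5 (0.19), Nepn (0.22) and Hoxc5 (0.25). Hoxb5, a Hox gene of the neck and upper trunk, read 8.17, 9.77 and 10.45 on mutant arrays 1, 2 and 3, against 8.45, 10.42 and 10.43 on the wild-type arrays, so that it too was low on array 1 of each group. The genes nearest to Evx1 were Vwa5a (0.25), Kynu (0.26) and Adgb (0.31). Those nearest to the brighter Cdx2 probe set were Cyb5r2 (0.18), Gpr39 (0.19) and Ms4a4d (0.19), which were likewise high on mutant array 2 and no other array. On all other arrays Cyb5r2, Gpr39 and Ms4a4d were below the background level. Each nearest gene was the best match among all genes over only 6 arrays.

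**Figure D3:**
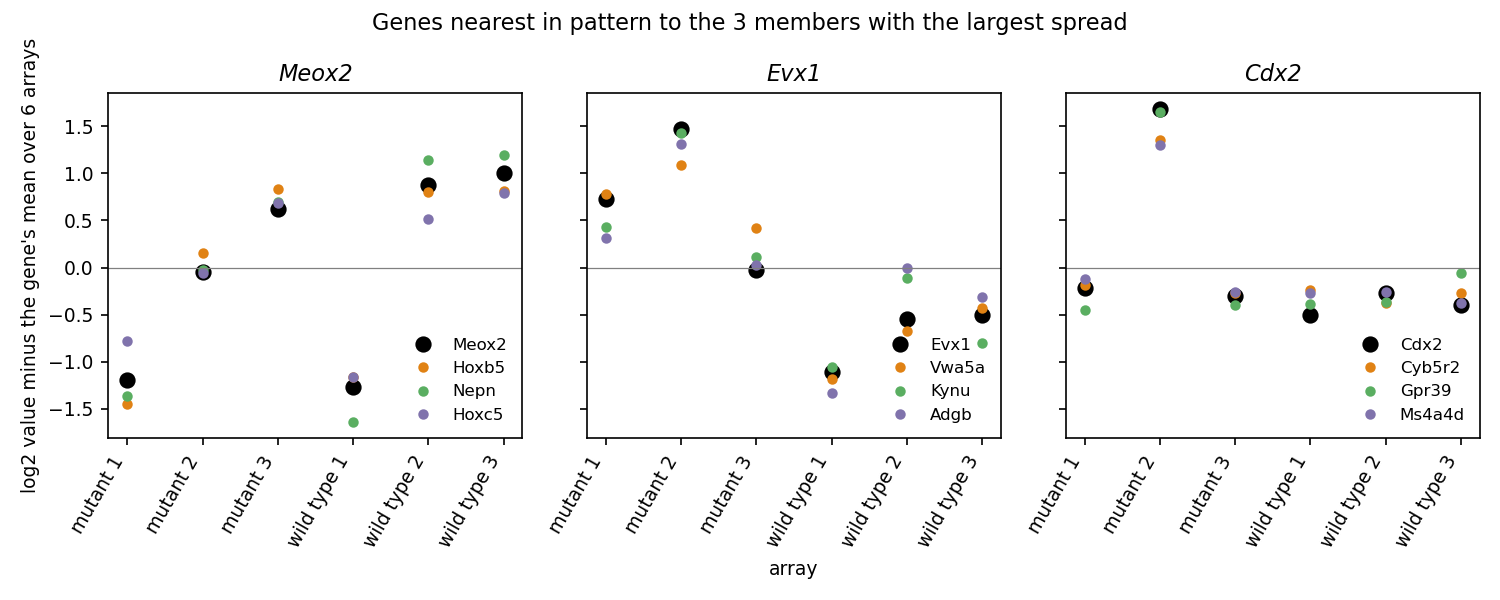
Log2 values minus each gene's mean over 6 arrays (y axis) on the 3 mutant and 3 wild-type arrays (x axis) for Meox2, Evx1 and Cdx2 (black), the members with the largest SD, and the 3 genes nearest to each (coloured). Replicate 1 is low in both groups for Meox2 and its nearest genes, and mutant array 2 alone is high for Cdx2 and its nearest genes.

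Lists of genes around these factors gave 1 call over all genes, in the Wnt targets. Of 14 caudal growth zone genes measured, 9 were higher and 5 lower in mutant cells, none was called, and the median difference was 0.29 (0.17 without mutant replicate 2), beside −0.03 for all genes. The zinc finger factor Sp5, a Wnt target of the tail bud, read 8.35, 8.73 and 8.28 on mutant arrays 1, 2 and 3, against 7.11, 7.56 and 7.01 on the wild-type arrays. The groups did not overlap, and the Sp5 difference was 1.23 (SE 0.19, limma adjusted p = 0.126). Gbx2 (0.37, adjusted p = 0.391) and Fgf17 (0.39, adjusted p = 0.400) were next. Wnt3a, the main Wnt ligand of the mouse tail bud, stood at 0.10 and Cyp26a1, which breaks down retinoic acid there, at 0.49. The 5 lower genes were Nkx1-2 (−0.63), Wnt5a (−0.48), Wnt8a (−0.32), Sp8 (−0.14) and Evx2 (−0.09). Of 11 canonical Wnt targets on a separate list, 10 were higher. Among them Apcdd1, a membrane protein that dampens Wnt signals, rose by 1.82 (limma adjusted p = 0.0371). That call was lost on leaving out any single array other than mutant replicate 1 (limma adjusted p from 0.100 to 0.179, with differences from 1.70 to 1.85), and with the most variable probe set (0.216) or the replicate block (0.0872). The others did not pass, Dkk1 at 1.31 (adjusted p = 0.0881) and Axin2 at 0.74 (0.208) being the next. The median of the Wnt targets was 0.61, and that of the 10 members was 0.10.

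Posterior Hox genes, which Cdx factors are known to switch on, were higher in 13 of 17 cases and lower in 4, with none called and a median of 0.22 (0.0590 without mutant replicate 3 and 0.50 without mutant replicate 1); of all genes, 8136 of 18193 were higher. These counts include 8 Hox genes with a mean no higher than background, and 4 of the 17 exceeded it on all arrays. Nearest to a call were Hoxd11 (0.28, below the background level on all arrays, adjusted p = 0.431), Hoxa9 (0.54, adjusted p = 0.453) and Hoxd9 (1.31, adjusted p = 0.475). Hoxd9 read 6.84, 7.73 and 8.20 on mutant arrays 1, 2 and 3, against 4.78, 7.18 and 6.87 on the wild-type arrays. Its mutant array 1 lay below both of the higher wild-type arrays. On wild-type array 1, Hoxd9 and Hoxa9 (4.75) were below the background level. Hoxa13, the next protein-coding gene to Evx1 in the assembly GRCm38.p6, read 4.23 ± 0.16 in mutant and 4.02 ± 0.16 in wild-type cells (SD, n = 3 each), below the background level in both. Averaged over the posterior Hox list and set against the wild-type average, values were −0.15, 0.27 and 0.84 on the mutant arrays, against −0.35, 0.13 and 0.22 on the wild-type arrays. Mutant array 3 stood out on this list. Among the mutant arrays, Cdx1 and the dimmer Cdx2 probe set (5.24, against 5.22 on array 2) were also highest on array 3. So were Msgn1, Tbx6, Mesp2, Meox1, both Meox2 probe sets and Tcf15, so this was not particular to the Cdx genes. Evx1, Cdx4 and the brighter Cdx2 probe set were highest on array 2.

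Among 17 presomitic and segmentation clock genes, 7 were higher and 10 lower in mutant cells, with none called and a median of −0.02. Dll3, a Notch ligand of the presomitic mesoderm, read 6.77, 6.44 and 6.43 on mutant arrays 1, 2 and 3, against 7.05, 6.99 and 7.35 on the wild-type arrays. Its groups did not overlap, and the difference of −0.58 did not pass (SE 0.16, limma adjusted p = 0.259). Dusp6, an FGF feedback phosphatase, stood at 0.34 (adjusted p = 0.418), and Lfng, which modifies Notch in the clock, at −0.48 (0.431). Hes7, the core oscillator of the mouse clock, was below the background level on every array, at 4.31 ± 0.15 in mutant and 4.31 ± 0.17 in wild-type cells (SD, n = 3 each).

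Somite derivative genes went both ways, with 8 of 18 higher, 10 lower, none called and a median of −0.04. Foxc2 (0.61, limma adjusted p = 0.346), Twist1 (0.27, 0.515) and Sim1 (0.62, 0.543) had the smallest p. Averaged over the somite list and set against the wild-type average, values were −0.23, 0.11 and 0.06 on mutant arrays 1, 2 and 3, against −0.44, 0.30 and 0.15 on the wild-type arrays, so that array 1 was the lowest of each group, as it was for the posterior Hox, hindlimb and cardiac progenitor lists. Gene by gene, replicate 1 was the lowest array in both groups for 6 of the 18, beside the 13.5% of all genes given above. The part of somite content in the member values was not tested.

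**Figure D4:**
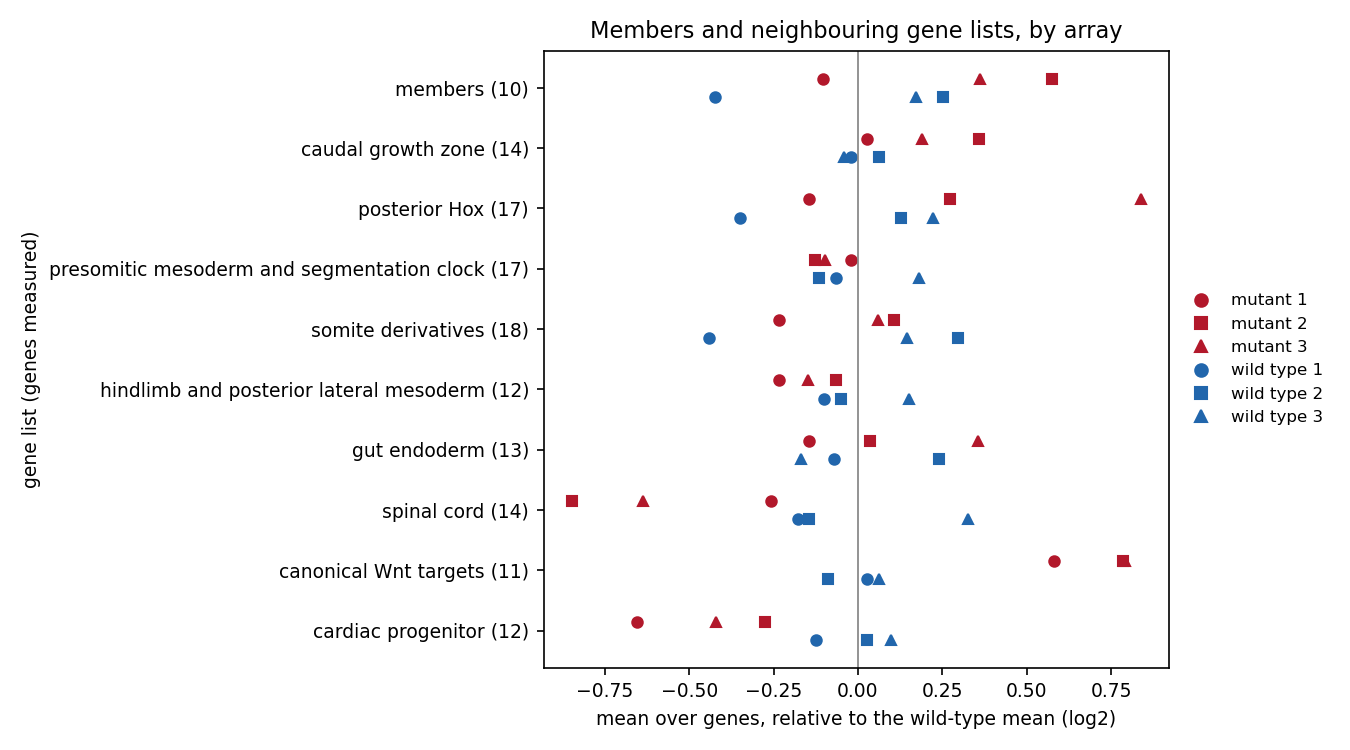
Mean over the genes of each list (y axis, with the number of genes measured), relative to the list's wild-type mean (x axis, log2), on 3 mutant (red, upper row) and 3 wild-type arrays (blue, lower row). Canonical Wnt targets are above 0.5 on all 3 mutant arrays, spinal cord and cardiac progenitor genes lie lower in mutant cells, and array 1 is the lowest of each group for the 10 members and for the posterior Hox, somite, hindlimb and cardiac progenitor lists.

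Other tissues that make these factors were followed too. Evx1 also marks spinal interneurons born from Dbx1-positive progenitors. The spinal cord list was lower in 13 of 14 genes, with none called and a median of −0.53, and its mean ran from −0.85 to −0.26 on the mutant arrays, against −0.18 to 0.32 on the wild-type arrays. Dbx1 read 7.00, 5.93 and 6.53 on mutant arrays 1, 2 and 3, against 7.63, 7.47 and 8.04 on the wild-type arrays, a difference of −1.23 (limma adjusted p = 0.220). Sox3 stood at −0.91 (adjusted p = 0.277) and Elavl3 at −1.37 (0.421). The part of spinal cells in the Evx1 values was not tested. Cdx2 is made in hindgut endoderm. Averaged over the gut endoderm list and set against the wild-type average, values were −0.14, 0.04 and 0.36 on the mutant arrays, against −0.07, 0.24 and −0.17 on the wild-type arrays. The part of gut endoderm in the high Cdx2 value, which 1 of its 2 probe sets showed, was not tested. Of the 13 gut genes, 6 were higher and 7 lower, none called, with Shh at −1.26 (adjusted p = 0.131), Sox17 at 1.80 (0.140) and Foxa1 at −1.07 (0.314). Hindlimb and posterior lateral mesoderm genes were higher in 6 and lower in 6 cases with a median of 0.00, and Osr1 (−1.05, adjusted p = 0.343), Foxf1 (−1.47, 0.406) and Irx5 (0.37, 0.416) had the smallest p. Cardiac progenitor genes were lower in 9 of 12 cases (median −0.53), with Tnnt2 at −0.76 (0.187), Tbx20 at −0.94 (0.220) and Isl1 at −1.18 (0.269), none called.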

How the data were processed

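Per the labels' protocols, RNA of the sorted cells was amplified (WT-Ovation Pico), labelled with biotin and hybridised. The deposited values are log2 per probe set; how the authors corrected, summarised and normalized them is not given in the sources here. The arrays had nearly equal distributions and were not rescaled, so a shift of most genes would be lost. Their number limits the precision.

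Gene names came from GEO's platform annotation, updated by identifier (34741 of 34945 single-gene probe sets matched). The probe set with the highest mean stood for a gene. Background is the 95th percentile of 27 bacterial control means. Groups were compared with limma 3.58.1 (R 4.3.3, lmFit, eBayes, two-sided), adjusted by Benjamini-Hochberg over all 18193 genes. The fit was also run on simulated data with independent noise for each gene, which could not show the effect of spread shared between genes. The members and lists were chosen with earlier results of these data known. Named are all members and, in each list, the 3 genes with the smallest p. The 3 genes nearest in pattern to the 3 members with the largest SD are named too. Nkx2-5, Mesp1, Wnt3a, Cyp26a1, Hoxa13, Hes7 and the lower genes of the caudal growth zone were added after their values were seen. List genes without a single-gene probe set, T among them, were not analysed here. Alternatives were a replicate block, quantile normalization, median centring, leaving out the dimmest 40% of genes, the most variable probe set, every probe set, a trended robust prior, array weights and leaving out each array.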

Additional observations from a re-analysis of the deposited data

How the results depend on the processing

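Under the 14 alternatives no member was called, and adjusted p-values of members ran from 0.117 to 0.998. The 72 member values under the 8 alternatives that keep all arrays had the same direction as reported. Only quantile normalization, median centring and array weights altered the size of a member's difference. The rest of the 8 left each difference as it was, so the direction could not change there. The most variable probe set was the same probe set for each member. Without the dimmest 40% of genes only Meox1 and Tcf15 were left to test. Same-numbered arrays did not deviate together across genes (correlations 0.108, −0.0751 and −0.0161), so the numbers were not taken as pairs. With the replicate number as a block, Evx1 had an adjusted p of 0.253 and Cdx1 of 0.258, and the calls over all genes fell to 0, against 12 without it. The block did bear on single members. Unadjusted limma p went from 0.560 to 0.107 for Meox2 and from 0.0235 to 0.00440 for Cdx1, and rose for Cdx4, Mesp2 and Msgn1. Over all genes the calls were 6 with median centring and 1 with the most variable probe set. With every probe set tested they were 5 of the representative probe sets. Calls numbered 11 with quantile normalization, 11 without the dimmest 40% of genes, 13 with the trended robust prior and 16 with array weights. Leaving out an array gave 81 higher and 11 lower without mutant replicate 1, and 0 without mutant replicates 2 or 3 or wild-type replicate 2. It gave 4 without wild-type replicate 1 and 2 without wild-type replicate 3. Leaving out each array, Cdx2 ran from 0.13 to 1.12, Msgn1 from −0.0688 to 0.11, Meox1 from −0.0791 to 0.38, Meox2 from −1.15 to 0.0816 and Tcf15 from −0.45 to 0.46, so the last 4 changed sign. The dimmer Cdx2 probe set ran from −0.17 to 0.00288, and the dimmer Meox2 probe set from −0.99 (without wild-type replicate 1) to −0.0860 (without mutant replicate 1). The median ran from 0.17 (without mutant replicate 2) to 0.31 for the caudal growth zone, from 0.0590 (without mutant replicate 3) to 0.50 (without mutant replicate 1) for posterior Hox genes, from −0.15 to 0.0875 (without mutant replicate 1) for gut endoderm, from −0.19 (without wild-type replicate 1) to 0.12 (without wild-type replicate 3) for somite derivatives, from −0.12 to 0.00705 for presomitic genes and from −0.0745 to 0.0248 for hindlimb genes. The cause of these shifts was not tested beyond the array left out. Values at or below the background level (Cdx4, Mesp2 and most of Tbx6) hold no usable difference. Cdx1 on wild-type array 1 and both Meox2 probe sets on some arrays were below that level too, which limits the size of their differences.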
